A study of Mus musculus with 3 samples.

Results

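FLI1 occupancy was set directly against RUNX1 occupancy in mature mouse megakaryocytes (MK), the large marrow and fetal liver cells that shed platelets. The comparison used 2 of the 3 libraries of the series, 1 made with a FLI1 antibody and 1 with a RUNX1 antibody, and the third library, input chromatin with no antibody, served as the reference. All 3 came from wild-type CD1 mice. The cells were grown from fetal livers, labelled E15 although the methods give E14, for 5 days with thrombopoietin, the cytokine that drives MK growth. They were then separated from other lineages with antibody-coated beads and a gradient of bovine serum albumin. The FLI1 and RUNX1 antibodies were applied to crosslinked, sonicated chromatin, and each library was made from pooled precipitates, at least 3 of them. The labels describe sonication alone, whereas the methods describe an input digested with micrococcal nuclease, so the input may have been cut differently from the antibody libraries, and the effect on values given as times input was not tested. There was 1 library per antibody and no replicate, so no p-value is given and every interval is an exact (Clopper-Pearson) 95% interval that covers counting error only. Read density on DNA is not expression, and the purity of the culture could not be checked from marker transcripts.

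FLI1 is a member of the ETS family of transcription factors, which bind DNA around a GGAA core. RUNX1 binds the letters TGTGGT and close variants as a partner of CBF beta. Both are needed for MK maturation, and loss of either lowers the platelet count in mice and in inherited human disease.

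The 22367 protein-coding genes of the mm9 annotation were compared in 2 compartments. The promoter was 1 kb either side of the transcription start site (TSS), and the territory was the gene with 20 kb either side, less every promoter. Neighbouring territories overlap and share reads. The FLI1 library held 62946422 reads on the chromosomes used, RUNX1 held 3973856 and input held 21745220 at distinct positions, so the RUNX1 depth set the precision. The deposited RUNX1 file holds far fewer reads than the uniquely mapped tags the study lists for its RUNX1 library, which limits every RUNX1 count given here. The median promoter held 70 FLI1, 4 RUNX1 and 19 input reads, and the median territory held 1392, 87 and 543. FLI1 counts were scaled down to the RUNX1 depth, 5 was added to each count, and the log2 of FLI1 over RUNX1 is called the lean. A promoter was called at a 2-fold lean and a territory at a 1.5-fold lean. Reads of both antibody libraries had 50 bases and those of input 34, and 80.5% of FLI1 reads but 58.5% of RUNX1 reads, of 10000 each, matched the genome without a mismatch (96.9% and 98.2% did with up to 3). Whether read quality or read length moved any lean was not tested.

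The windows of 200 bases with most reads show the range of patterns. The first 3 were chosen by their FLI1 reads at promoters, Ipo5 by its RUNX1 reads at a promoter, the next 2 by FLI1 reads in territories and the last 2 by RUNX1 reads in territories. A window chosen by 1 library leans to that library by construction. Bases of annotated exons were left off, and each is written 5′ to 3′ on the strand of its gene, from the mm9 genome. Asxl2 is chr12:3426645-3426806 (plus strand), Itga2b is chr11:102331437-102331625 (minus), Nfe2 is chr15:103088934-103089133 (minus), Ipo5 is chr14:121310036-121310235 (plus), Itgb3 is chr11:104457810-104458009 (plus), Selp is chr1:166065585-166065784 (plus), Runx1 is chr16:92801142-92801341 (minus) and Slc6a4 is chr11:76806455-76806654 (plus). The Itgb3, Slc6a4 and promoter windows are intergenic at their centres, and the Selp and Runx1 windows lie in introns of those genes. Capitals mark ETS letters (CCGGAAG, or the same with A as the second base, the last base or both) and RUNX letters (TGTGGT, or the same with C as the third base) on either strand.
Asxl2: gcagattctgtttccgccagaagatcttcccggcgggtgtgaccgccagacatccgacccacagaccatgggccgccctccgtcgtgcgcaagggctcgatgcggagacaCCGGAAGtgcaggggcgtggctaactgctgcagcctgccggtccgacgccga
Itga2b: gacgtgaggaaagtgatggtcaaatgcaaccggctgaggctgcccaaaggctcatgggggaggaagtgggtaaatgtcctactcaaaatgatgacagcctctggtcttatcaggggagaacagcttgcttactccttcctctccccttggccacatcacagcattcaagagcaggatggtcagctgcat
Nfe2: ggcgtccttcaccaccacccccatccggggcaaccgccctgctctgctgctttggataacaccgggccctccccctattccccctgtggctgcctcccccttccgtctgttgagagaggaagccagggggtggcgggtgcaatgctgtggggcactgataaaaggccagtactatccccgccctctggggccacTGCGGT
Ipo5: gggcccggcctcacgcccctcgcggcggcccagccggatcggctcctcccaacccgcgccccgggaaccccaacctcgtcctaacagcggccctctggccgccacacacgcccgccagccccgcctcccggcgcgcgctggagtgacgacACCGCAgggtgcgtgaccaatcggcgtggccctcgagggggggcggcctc
Itgb3: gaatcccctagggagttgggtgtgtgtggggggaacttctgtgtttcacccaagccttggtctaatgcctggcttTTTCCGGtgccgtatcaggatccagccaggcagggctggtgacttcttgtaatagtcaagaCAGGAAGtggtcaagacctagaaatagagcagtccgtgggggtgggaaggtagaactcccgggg
Selp: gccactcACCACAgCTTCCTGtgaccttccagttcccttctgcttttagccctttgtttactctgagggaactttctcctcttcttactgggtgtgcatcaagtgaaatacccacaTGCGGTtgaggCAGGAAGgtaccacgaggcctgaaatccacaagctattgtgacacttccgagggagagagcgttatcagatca
Runx1: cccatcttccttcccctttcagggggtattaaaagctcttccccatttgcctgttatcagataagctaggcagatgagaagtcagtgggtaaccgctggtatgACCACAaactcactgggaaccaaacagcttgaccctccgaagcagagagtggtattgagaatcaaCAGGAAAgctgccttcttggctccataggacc
Slc6a4: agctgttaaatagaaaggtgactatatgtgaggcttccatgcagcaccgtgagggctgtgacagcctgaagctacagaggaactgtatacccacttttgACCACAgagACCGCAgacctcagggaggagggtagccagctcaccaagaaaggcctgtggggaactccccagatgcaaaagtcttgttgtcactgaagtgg

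ETS letters stood in 22.4% and RUNX letters in 14.6% of the 200 bases upstream of all TSSs. In stretches of the same length 2 kb from the strongest FLI1 windows of territories the shares were 14.7% and 16.8%. A match is a description of the letters and not a shown binding site. The Itga2b stretch holds neither set of letters as spelled here.

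The promoters as a whole leaned to FLI1 and the territories to neither factor. Each factor has 1 antibody and 1 library, so how well each antibody worked and how much each factor occupied DNA cannot be told apart. Reads summed over all promoters, each read once, gave a depth-adjusted FLI1/RUNX1 ratio of 1.25 (1.24 to 1.26), with FLI1 at 1.85 and RUNX1 at 1.48 times input. Over all territories, which held 55.4% of the reads of each antibody library, the ratio was 1.00. Scaling to equal depth draws the ratio of so large a share towards 1, so it does not measure how binding was balanced there. Single promoters had a median lean of 0.12 with quartiles of -0.14 and 0.44, and 60.8% lay above 0. Territories had a median of 0.00 with quartiles of -0.12 and 0.12, and 48.2% lay above 0. The ratio was highest next to the TSS. Within 250 bp of a TSS the FLI1/RUNX1 ratio was 1.48 (1.47 to 1.49), and FLI1 stood at 2.67 and RUNX1 at 1.80 times input. With the repeated input positions kept, FLI1 stood there at 1.71 times input, and RUNX1 over input, which has the same denominator, is lower by the same factor. The FLI1/RUNX1 ratio was 1.07 from 250 bp to 1 kb, 1.02 from 1 to 2 kb, 1.00 from 5 to 20 kb and 0.982 beyond 50 kb. The 100 bases upstream of the TSS were the peak of both antibodies, with FLI1 at 5.04 and RUNX1 at 2.49 times the mean of the flanks, where input was at 0.856.

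**Figure D1:**
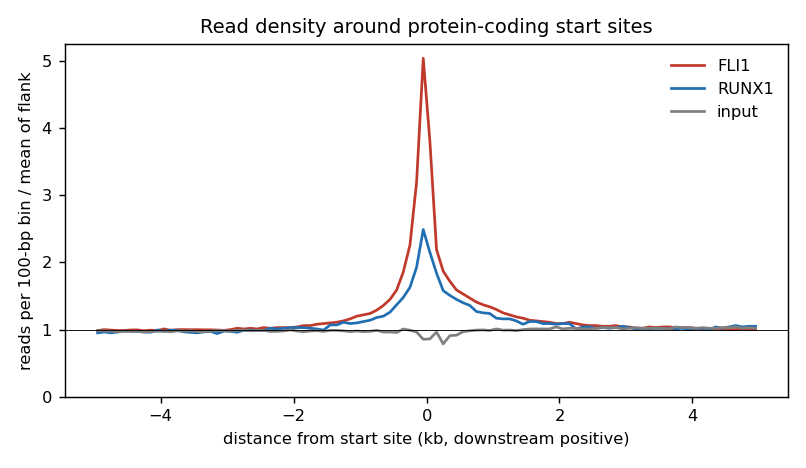
Reads per 100-bp bin around protein-coding TSSs, divided by the mean of the bins more than 4 kb away, for the FLI1, RUNX1 and input libraries (1 line each). Both antibody libraries peak in the bin just upstream of the TSS, FLI1 at 5.04 and RUNX1 at 2.49, while input stands at 0.856 in that bin.

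Promoter calls were mostly to FLI1. There were 1121 promoters leaning to FLI1 (5.01% of all) and 40 leaning to RUNX1 (0.179%). The counting interval of each called ratio lay on its own side of 1. The calls rest on the same counts with 5 added, so this follows from the rule and is no separate support. Of the 1121, 1108 had a territory called for neither factor and 13 a territory also leaning to FLI1. Territories gave 106 calls to FLI1 (0.474%) and 167 to RUNX1 (0.747%), of which 97 and 152 had intervals apart from 1. No gene was called to 1 factor at its promoter and to the other in its territory. However, no promoter called to FLI1 had fewer than 80 FLI1 reads. Of the 167 territories called to RUNX1, 125 belonged to the 2237 genes with fewest promoter FLI1 reads, at most 30. In the other direction, only 40 promoters were called to RUNX1 and 0.474% of territories to FLI1. Little can therefore be read from the absence of genes with opposite calls. The number of promoter calls depended on the number added: with 1 in place of 5 there were 4028 to FLI1 and 760 to RUNX1. Territory calls moved as well, to 203 and 403 with 1 added, while plus-strand reads gave 218 and territories of 10 kb gave 314 calls to FLI1.

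**Figure D2:**
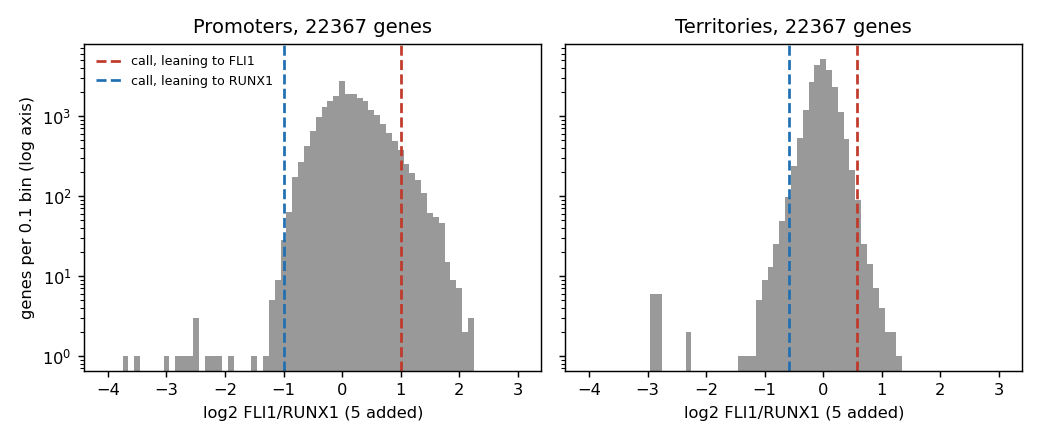
Number of genes per 0.1 bin of log2 FLI1/RUNX1 (5 added to counts at equal depth) for promoters and territories, on a log axis, with dashed lines at the call thresholds. The promoter distribution reaches farther to the FLI1 side, and the isolated bars below -1.5 are mostly 2 clusters of predicted genes.

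The promoters with the highest lean carried from 237 to 433 FLI1 reads and 0 to 3 RUNX1 reads. ORF19 had 370 FLI1, 1 RUNX1 and 25 input reads and a lean of 2.24. Dph3, an enzyme of diphthamide synthesis, had 365 FLI1, 1 RUNX1 and 32 input reads (2.22). Asxl2, a Polycomb-associated chromatin protein, had 433 FLI1, 2 RUNX1 and 18 input reads (2.21, ratio interval 3.76 to 113). The Asxl2 window shown above had 194 FLI1, 0 RUNX1 and 1 input read. Mtmr14, a phosphoinositide phosphatase, had 406, 2 and 20 reads (2.13). The next were Tbpl1, a TBP-like factor of transcription (2.04), Snrpc, a protein of the U1 snRNP (2.02), Rttn, a centriole protein (2.00), Atg16l1, needed for autophagy (1.98), and Mcm8, a DNA helicase (1.98). RUNX1 reads at these promoters numbered fewer than the median promoter's 4, which follows from their choice by the highest lean. Their territories were called for neither factor, with leans from -0.23 at Tbpl1 to 0.14 at Asxl2.

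The lowest promoters were those of 2 clusters of predicted genes, on chromosome 9 (start sites near chr9:3000922) and on chromosome 2 (near chr2:98507458). They gave 13 of the 40 RUNX1 promoter calls and all 13 genes called to RUNX1 in both compartments. Gm10800 held 1081 FLI1, 930 RUNX1 and 611 distinct input reads (lean -3.67), and Gm10722 held 712, 389 and 286 (-2.98). All libraries were dense there. The antibody files keep 1 read per position and strand, whereas the input file does not, and before repeats were removed the input held 99859 reads at the Gm10800 promoter. How far the limit of 1 read per position moved these leans was not tested. Gm10721, also in a cluster and called to RUNX1 over its territory, had no read in any library at its promoter.

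Outside the clusters 27 promoters leaned to RUNX1, and they were weaker and rested on few reads. They are named here after their values were seen. Rev1, a translesion DNA polymerase, had 65 FLI1, 20 RUNX1 and 13 input reads (lean -1.46, ratio interval 0.123 to 0.358). In the 200 bases with most RUNX1 reads it had 0 FLI1 and 6 RUNX1 reads. Grsf1, an RNA-binding protein of mitochondria, had 95, 22 and 7 reads (-1.30). Ipo5, a nuclear import receptor, had 82, 18 and 15 (-1.18), and its window shown above had 13 FLI1 and 7 RUNX1 reads. Bmi1, a Polycomb protein of stem cell self-renewal, had 57, 14 and 5 (-1.14), and Med13l, a subunit of the Mediator kinase module, had 76, 16 and 4 (-1.10). Evx2 had 49, 14 and 14 reads, and Bhlhe23 had 29, 11 and 25, both genes of transcription factors known from the nervous system (-1.23 each). FLI1 reads at the 27 ranged from 19 at Cabp7 to 95 at Grsf1, beside 70 at the median promoter. None of the 40 had the letters CCGGAAGT within 250 bp of the TSS, letters that 5.77% of all promoters held, so little can be read from that count. On plus-strand reads alone, with the same 5 added, 15 promoters leaned to RUNX1 and 471 to FLI1.

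Some territories that leaned to FLI1 held a window with many FLI1 and few RUNX1 reads. The gene 1600014C10Rik had 5355 FLI1, 171 RUNX1 and 980 input reads over its territory (lean 0.96, ratio interval 1.70 to 2.32). One of its introns held a window with 344 FLI1, 5 RUNX1 and 6 input reads. A window of 200 bases can hold at most 400 reads in the antibody files. Btbd19 had 1774, 56 and 478 reads (0.94) and a window in a coding exon with 248 FLI1, 2 RUNX1 and 2 input reads. Crybb1, a lens crystallin, had 3097, 101 and 611 (0.92), and Traip, a ubiquitin ligase of replication, had 3224, 110 and 740 (0.86). The windows with most FLI1 reads in these territories lay in introns of neighbouring genes, with 320 FLI1 reads in Tpst2 for Crybb1 and 371 in Uba7 for Traip. Gm9821 (1.03), Gm10318 (0.98), Defb35 (0.88) and Ptk6 (0.87) completed the highest 8. The log2 of FLI1 over input was 0.48 at Gm9821. At Gm10318, Defb35 and Ptk6 FLI1 lay below input (-0.65, -0.29 and -0.59) and RUNX1 lower still (-1.62, -1.17 and -1.46).

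Of the 167 territories leaning to RUNX1, 84 were predicted genes named Gm with a number, a class of 2028 among all genes that also gave 25 of the 106 territories leaning to FLI1. Apart from the clusters, the lowest were Gm4788 (216 FLI1, 42 RUNX1 and 56 input reads, lean -1.33) and 4930467E23Rik (306, 46 and 404, -1.07). Next came Gm2792 (247, 37 and 404, -1.03) and Raet1c, a ligand of an NK cell receptor (343, 49 and 216, -1.02). The log2 of RUNX1 over input was 1.63 at Gm4788 and 0.28 at Raet1c. It was -0.63 at 4930467E23Rik and -0.91 at Gm2792, where RUNX1 lay below input and FLI1 lower still (-1.70 and -1.94). The promoters of all these genes held 0 to 4 FLI1 reads and no RUNX1 read. The median RUNX1 count of the called territories was 27, against 87 over all territories. 29 of the 167 lay on chromosome X, which has 932 of the genes, and over all its reads X had a FLI1/RUNX1 ratio of 0.921 (0.916 to 0.925) and Y of 0.813 (0.780 to 0.848), against 0.983 to 1.03 on the other chromosomes.

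Megakaryocyte and platelet genes leaned to FLI1 at some promoters and to neither at others, and genes with like FLI1 counts differed in RUNX1 counts. Itga2b, the alpha chain of the fibrinogen receptor, had 614 FLI1, 12 RUNX1 and 24 input reads at its promoter (lean 1.36, ratio interval 1.84 to 6.29). Pf4, a platelet chemokine of the alpha granule, had 553, 11 and 26 (1.32, 1.76 to 6.40). Fli1 itself had 541, 14 and 12 (1.04, 1.44 to 4.49). Nfe2, the p45 subunit of the factor that drives platelet release, had 550 FLI1 reads, close to those 3, but 32 RUNX1 and 23 input reads (0.10, 0.760 to 1.60). Its strongest window, shown above with its RUNX letters, held 267 FLI1, 13 RUNX1 and 2 input reads, and that of Itga2b held 235, 1 and 8. Within 250 bp of the TSS, RUNX letters stood at Nfe2 but also at Itga2b and Pf4, and not at Fli1. The intervals of the whole-promoter ratios of Itga2b and Nfe2 did not overlap.

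Of the other platelet receptor genes, Gp5 was called to FLI1 with 277 FLI1, 5 RUNX1 and 21 input reads (lean 1.17). Gp1bb (190, 5 and 27, lean 0.77) and Gp1ba (363, 12 and 22, lean 0.72) lay under the call with intervals above 1. Gp9 had 320, 16 and 26 reads (0.26). All 4 code for the GPIb-IX-V receptor of von Willebrand factor. Gp6, the collagen receptor, had a lean of 0.72 and Tubb1, the platelet beta tubulin, 0.50, each with an interval that included 1. Itgb3, the partner of Itga2b, had 223, 12 and 23 reads (0.17). Runx1 had 279, 13 and 22 (0.33). Negative leans were found at Vwf (53, 6 and 21 reads, -0.40) and at Tbxas1, thromboxane synthase (80, 11 and 11, -0.67, ratio interval 0.243 to 0.957). Slc6a4 (-0.15) and Rab27b (-0.13) were slightly negative too, and none of these was called. On plus-strand reads alone Tbxas1 had 44 FLI1 and 2 RUNX1 reads.

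**Figure D3:**
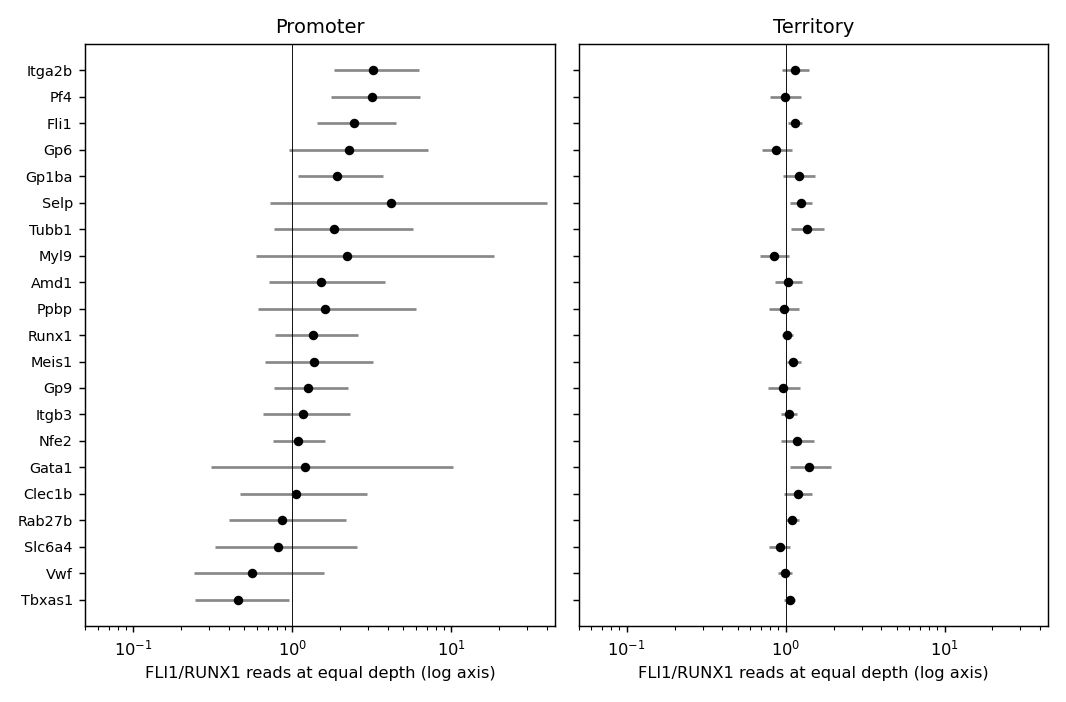
FLI1/RUNX1 ratio of reads at equal depth (log axis, no number added) with its exact 95% counting interval (lines, cut at the axis limit) for genes of a fixed list, at the promoter and over the territory. Itga2b, Pf4, Fli1 and Gp1ba lie wholly above 1 at the promoter and Tbxas1 wholly below, while the territories crowd around 1.

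Away from promoters none of these genes was called over its territory, though some leaned to FLI1 with intervals above 1. Single windows went both ways, but each was chosen by its FLI1 or its RUNX1 reads. Such a window leans to the library that chose it by construction, and its interval does not allow for that choice. The Fli1 territory had 7357 FLI1 and 404 RUNX1 reads (lean 0.20, ratio interval 1.04 to 1.27), Selp had 3407 and 172 (0.31, 1.07 to 1.47), Tubb1 had 1639 and 76 (0.42, 1.08 to 1.74) and Gata1 had 1093 and 49 (0.45, 1.06 to 1.92). Itgb3 (0.07), Runx1 (0.03), Vwf (-0.02) and Pf4 (-0.01) had intervals that included 1. The strongest FLI1 window of Selp, which codes for P-selectin, lay in an intron and was also its strongest window for RUNX1, within 20 bases, with 284 FLI1, 9 RUNX1 and 0 input reads. That of Itgb3 lay 11460 bp upstream of the TSS with 245, 4 and 4 reads, whereas its strongest RUNX1 window, in an intron, had 161 FLI1 and 14 RUNX1 reads. In an intron of Runx1, 25069 bp from the TSS, 16 RUNX1 and 72 FLI1 reads stood beside 4 input reads (ratio 0.284, 0.164 to 0.523). Upstream of Slc6a4, the serotonin transporter, 12 RUNX1 and 82 FLI1 reads stood beside 2 input reads (0.431, 0.234 to 0.869). The strongest FLI1 window of Tbxas1, in an intron, had 163 FLI1, 0 RUNX1 and 3 input reads. Rbm38, an RNA-binding protein, went both ways within 1 gene: its promoter had 128 FLI1 and 16 RUNX1 reads (-0.68) and its territory 2693 and 100 (0.74).

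Among the larger gene lists, those of ribosomal proteins and splicing factors had the highest promoter medians. The lists are described beside all genes, which had a median lean of 0.12, a called share of 5.01% and a ratio of 1.28 when reads were summed gene by gene. Over all genes these values were mostly higher where promoters held more FLI1 reads. With 170 to 232 FLI1 reads the median was 0.47, 11.1% were called to FLI1 and the summed ratio was 1.56. From 232 to 1558 reads the values were 0.79, 32.0% and 1.81. Cytosolic ribosomal protein and splicing factor promoters had means of 219 and 242 FLI1 reads. Whether any list differed from other promoters with like FLI1 reads was not tested. For the 80 cytosolic ribosomal protein genes the median was 0.59 and 17 promoters were called to FLI1 (21.2%), with a summed ratio of 2.03 (1.86 to 2.21). Rpl27a had 305 FLI1, 2 RUNX1 and 21 input reads (lean 1.79) and Rps27 had 290, 2 and 27 (1.74), while Rps9 had 129, 13 and 22 (-0.45). Of 54 splicing factors 12 were called (22.2%), with a median of 0.57 and a summed ratio of 1.92 (1.74 to 2.12), among them Snrpb2 with 279, 1 and 21 reads (1.91). Mitochondrial ribosomal proteins (13 of 75, median 0.44) and respiratory chain subunits (13 of 86, median 0.38) followed, with Mrpl3 (268, 1 and 14 reads, lean 1.87) and Uqcrh (276, 2 and 14, lean 1.68) as their highest members. Genes named Zfp, mostly zinc finger proteins, gave 40 calls of 344 with a median of 0.29. RUNX1 was also above input in these lists, at 2.03 times input for the ribosomal proteins and 2.37 times for the splicing factors.

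The 681 matched genes that the study lists as activated in mature MK had a median of 0.20, 45 calls to FLI1 (6.61%, near the 5.01% of all genes) and none to RUNX1 (0.179% of all genes). That list was chosen from expression, not from these libraries. It held Mtmr14, Gimap6 (263 FLI1, 1 RUNX1 and 21 input reads, lean 1.85) and Ptgs1, platelet cyclooxygenase (452, 5 and 25, lean 1.75), at the top, and Bmp2 (50, 11 and 10, lean -0.97) at the bottom. Platelet granule formation gave 5 calls of 23, led by Vps16 (412, 6 and 39, lean 1.50), and genes of actomyosin and membrane anchors 5 of 30, led by Tln1, which codes for talin (456, 7 and 25, lean 1.49). The GPIb-IX-V list with its ligand had the highest median, 0.72, over 5 genes with 1 call. Among 11 genes of the GATA-TAL1 complex Ldb1 (214, 3 and 8, lean 1.21) and Lyl1 (682, 18 and 27, lean 1.06) were called, and Gfi1b had 132, 14 and 15 reads (-0.51). ETS factor genes had 1 call of 25, Fli1, and the RUNX family with CBFB had 0 of 7. Stem and progenitor regulators (16 genes, median 0.10) and erythroid genes (19 genes, median 0.14) had no call. At the 5.01% share of all genes, lists this small or smaller would hold few calls, so little can be read from the lists with 0.

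Receptor genes of sensory neurons and keratins were at the lower end. Summed ratios were 0.911 (0.810 to 1.03) over 97 keratins and keratin-associated proteins, which had the lowest median (-0.01), 0.952 (0.919 to 0.988) over 1087 olfactory receptors and 0.873 (0.806 to 0.947) over 320 vomeronasal receptors. FLI1 stood at 0.947 and 1.01 times input over the olfactory and the vomeronasal receptors. None of these promoters was called, but their mean FLI1 reads were 44.5, 43.8 and 28.0 in the same order. The fewest FLI1 reads at any promoter called to FLI1 was 80, so low counts left little room for a call. HOX genes had a median of 0.04. No list had a promoter called to RUNX1, but the share over all genes was only 0.179%, so little can be read from that. In territories no list median passed 0.20, which was that of the NF-E2, small MAF and BACH genes, and platelet integrins stood at 0.19. The MK-activated genes had 9 territories called to FLI1 (1.32%, against 0.474% of all genes) and 0 to RUNX1 (against 0.747%). The sign of a list's distance from all genes depended on depth: 29 of 35 lists lay above the median of all genes, but 20 of 35 when only promoters with at least 10 reads were kept. Ribosomal proteins (0.38 above), splicing factors (0.32) and GPIb-IX-V (0.48, on 4 genes) lay above with that filter too, and the MK-activated genes lay 0.05 below.

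**Figure D4:**
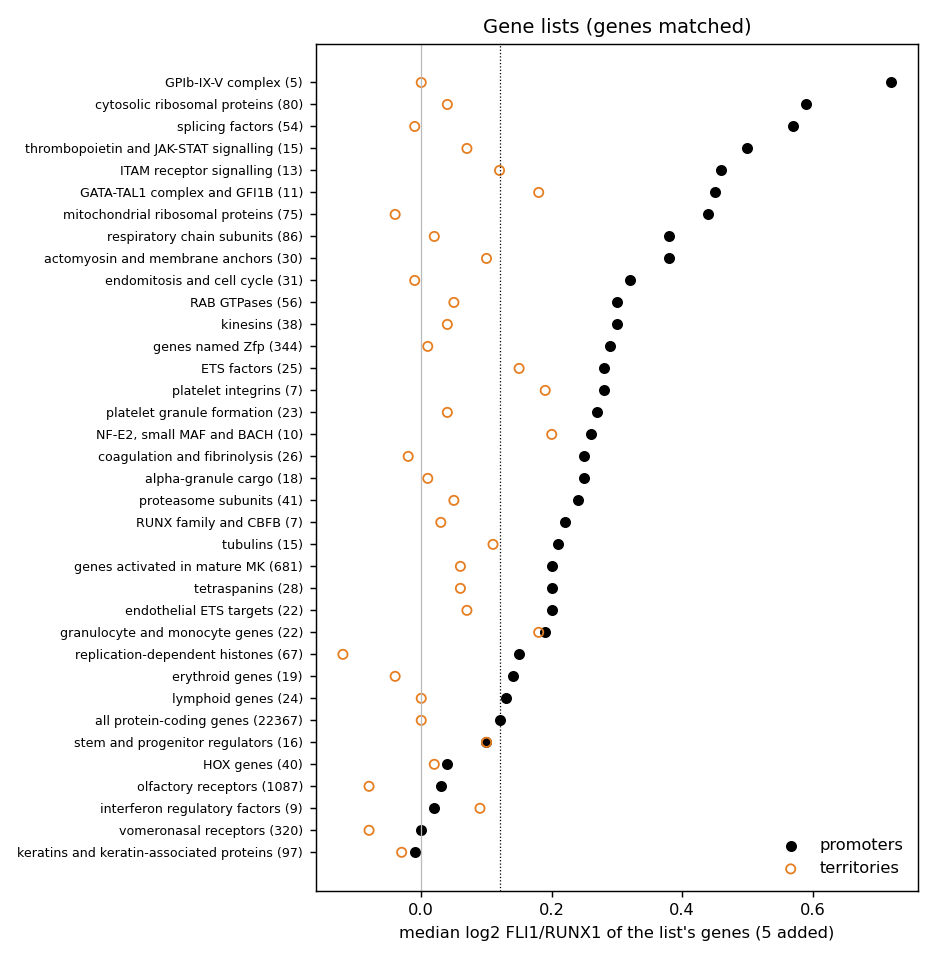
Median log2 FLI1/RUNX1 of each gene list (number of genes matched in brackets) at promoters (filled) and territories (open), sorted by the promoter value, with a dotted line at the promoter median of all genes. Promoter medians reach 0.59 for cytosolic ribosomal proteins and 0.72 for GPIb-IX-V, and territory medians lie at or below 0.20.

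Promoters with the strict ETS letters, which include a CpG, leaned more to FLI1, while those with RUNX letters had nearly the median of the rest. The strict ETS letters CCGGAAGT, on either strand within 250 bp of the TSS, stood in 1291 promoters (5.77%). These had a median lean of 0.62 and 284 of them were called to FLI1, against a median of 0.09 and 3.97% for promoters without them. Their summed ratio was 1.96 (1.92 to 2.00) against 1.22 (1.21 to 1.23). RUNX1 was also higher at promoters with these letters, at 2.01 against 1.48 times input, while FLI1 stood at 3.95 against 1.81. Of the FLI1 calls 25.3% held the letters. The shorter letters CCGGAA, with a CpG, stood in 24.3% of promoters. Medians were 0.38 with and 0.05 without them, with 13.5% and 2.29% called to FLI1. CAGGAA, of the same length without a CpG, stood in 42.2% of promoters and divided the leans little. Medians were 0.13 with and 0.10 without it, and FLI1 stood at 1.87 against 1.99 times input. RUNX letters stood in 34.3% of promoters and divided the leans into medians of 0.12 with and 0.11 without them. Promoters that face a second TSS on the opposite strand within 1 kb, 10.8% of all, had a median of 0.40 and 13.4% called to FLI1. CpG content moved with the leans too: from the lowest to the highest quintile of observed over expected CpG the medians were 0.00, 0.04, 0.18, 0.26 and 0.20. Within the 3 highest quintiles promoters with the strict ETS letters had medians of 0.63, 0.72 and 0.60, against 0.15, 0.22 and 0.17 without. In the 2 lowest quintiles, where only 17 and 79 promoters held the letters, the medians were 0.00 and 0.05 with and 0.00 and 0.03 without them. These divisions were chosen with results of these data in view.

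At the strongest FLI1 windows RUNX1 reads were higher where FLI1 reads were higher, and higher again where RUNX letters stood. The window with most FLI1 reads was taken from each promoter and each territory, and those with at least 20 FLI1 reads and little input were kept, 8932 and 10140 windows. Their FLI1 count chose them, so the independent measure is the RUNX1 count against its own flanks, 1 to 2 kb either side. At promoters RUNX1 stood at 2.41 times its flanks in windows with 20 to 39 FLI1 reads, and at 3.29, 4.17 and 5.49 times in windows with at least 40, 80 and 160 FLI1 reads, each class ending where the next begins. In territories the values were 1.67, 2.66, 3.82 and 5.61. Input stood at 0.956 and 1.32 times its flanks in the 2 sets. Promoter windows with RUNX letters (1580) had RUNX1 at 4.33 (4.14 to 4.52) and those without (7352) at 3.18 (3.11 to 3.25), while FLI1 stood at 9.24 and 9.23. In territories 3346 windows with RUNX letters had 3.48 (3.36 to 3.59) and 6794 without had 2.33 (2.27 to 2.40), with FLI1 at 9.50 and 8.43. These intervals over flanks were apart in all 4 classes of FLI1 reads in both compartments. RUNX1 over input was apart in all territory classes and in promoter windows with at least 80 FLI1 reads. With 20 to 39 reads at promoters it overlapped, at 2.73 (2.48 to 3.01) with RUNX letters and 2.65 (2.52 to 2.78) without. With 40 to 79 reads it also overlapped, at 4.36 (3.99 to 4.77) and 3.83 (3.67 to 4.00). Input stood at 1.08 and 0.935 times its flanks in the 20 to 39 promoter class. Other letters divided RUNX1 as well. Territory windows with the GATA letters AGATAA had RUNX1 at 3.11 (2.97 to 3.26) and those without at 2.62 (2.56 to 2.68), whereas at promoters the values were 3.03 (2.75 to 3.34) and 3.39 (3.32 to 3.46). Over all promoter windows RUNX1 stood at 3.47 (3.37 to 3.56) with ETS letters and at 3.28 (3.19 to 3.37) without. Within classes of FLI1 reads the order was mostly the other way. With 20 to 39 reads RUNX1 stood at 1.82 (1.67 to 1.97) with ETS letters and 2.67 (2.55 to 2.80) without. With 40 to 79 reads the values were 3.17 and 3.39, with overlapping intervals. In the class from 80 reads they were 4.00 (3.83 to 4.17) and 4.65 (4.35 to 4.97). Only with at least 160 reads was the order kept, at 5.51 and 5.38, again overlapping. In every territory class RUNX1 was lower with ETS letters, from 1.53 against 1.84 to 5.50 against 6.30, the last overlapping. RUNX letters stood in 33.0% of the territory windows and 17.7% of the promoter windows, and ETS letters in 65.3% and 51.6%.

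**Figure D5:**
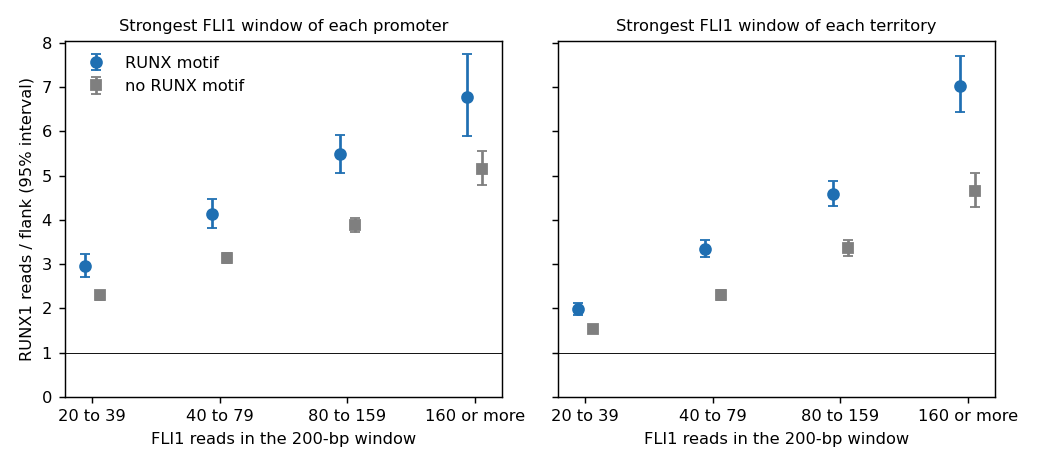
RUNX1 reads in the 200-bp window with most FLI1 reads, divided by the density 1 to 2 kb either side, by the number of FLI1 reads in the window and by the presence of RUNX letters. Bars are exact 95% counting intervals. In every class the windows with RUNX letters lie above those without, up to 7.03 in territories.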

How the data were processed

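The deposited files hold 1 line per mapped read, with its start, end and strand, and no counts, signal or fold values. Per the methods and the submitters' processing notes, reads were aligned to mm9 with Bowtie, and uniquely mapped, non-redundant reads were kept; the aligner version is not given in the sources used here. The name column of the input file has codes of another aligner, and 3.24% of its reads repeated a position and strand and were removed. The authors' peak calls (MACS 1.4) and SICER 1.1 were not used. Positions were 5′ ends moved 75 bp in the 3′ direction (a fragment of 150 bp), counted in GENCODE M1 protein-coding genes on chromosomes 1 to 19, X and Y with Python 3.11.15, numpy 2.4.6, pandas 2.3.3, scipy 1.17.1 and pysam 0.24.0.

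Libraries were compared as labelled, with ratios at equal depth and no model across genes. Reads are not independent molecules, since both ends or copies of 1 fragment can be counted. Genes were named by rule: the 10 highest and 10 lowest promoters, the 8 highest and 8 lowest territories with at least 50 reads, the 5 genes whose promoter most exceeded or fell below the territory, a fixed list of 22, and up to 4 members a list. Of these, 2 genes are not reported here. The members and lists were chosen with earlier results of these data known. The counting was tested on simulated data. Of 691 MK-activated genes looked for, 681 matched. Alternatives covered scaling, the number added, low counts, read position, strand, high input, TSS choice, region width and the fold of a call.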

Additional observations from a re-analysis of the deposited data

Results flagged for a closer look

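Repeated positions in the input file, which were removed before the comparisons and kept only in an alternative, were concentrated in the 2 clusters of predicted genes. Of 727749 repeats over all chromosomes used, 186145 (25.6%) lay in the cluster on chromosome 2 and 23183 (3.19%) in the cluster on chromosome 9. The antibody files hold no such repeats, so their level there is not known. The part of these repeats in the RUNX1 leans of the clusters was not tested.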

How the results depend on the processing

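The pooled promoter ratio stayed above 1 under every alternative run: it was 1.28 when libraries were scaled by reads far from genes, 1.29 without the top 1% of input, 1.16 with promoters of 2 kb and 1.22 with all TSSs. The territory ratio was 1.02 under the scaling by far reads. Counts of calls (1121 and 40 at promoters, 106 and 167 in territories, to FLI1 and RUNX1) moved with the fold of a call, the number added, the scaling and the strand. With RUNX1 scaled up they were 5043, 1245, 274 and 447; with 1 added, 4028, 760, 203 and 403; with 3-fold and 2-fold calls, 118, 13, 7 and 27. Plus-strand reads gave 471 and 15 promoter calls and 218 territory calls to FLI1, and a territory of 10 kb gave 314 to FLI1. Without the 2 clusters, an alternative added after seeing the data, 27 promoters and 153 territories leaned to RUNX1.

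Of 35 lists, 29 lay above all genes at promoters, 20 with at least 10 reads, 28 with the 5′ end not moved, with plus-strand reads and with promoters of 2 kb, and 27 without the top 1% of input. Signs of a list's distance from all genes reversed with at least 10 reads for ETS factors (-0.25), proteasome subunits (-0.02) and 6 lists that lay under 0.1 above all genes, which were lymphoid (-0.44), endothelial (-0.17), tetraspanin (-0.11), histone (-0.08), MK-activated (-0.05) and erythroid genes (-0.03). Among lists at least 0.1 away they also reversed on plus-strand reads for interferon regulatory factors (0.10) and endomitosis and cell cycle (-0.01), and with promoters of 2 kb for interferon regulatory factors (0.06) and coagulation (-0.10). Other lists under 0.1 away changed sign too under these settings. FLI1 over input within 250 bp of a TSS was 1.71 with input repeats kept (RUNX1 over input is lower by the same factor) and 2.67 when the clusters were left out as well, the latter added after seeing the data; from 1 to 2 kb it was 0.988 with repeats kept and 1.01 without them. The higher RUNX1 at windows with RUNX letters held on plus-strand reads, also added (4.36 against 3.17 at promoters, 3.46 against 2.32 in territories). No paired analysis was possible because there is 1 library per antibody. The RUNX1 depth, 4 reads at the median promoter, limits single genes: a promoter with few RUNX1 reads cannot be told from one with none.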
